A study of Homo sapiens with 8 samples.

Results

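The 10 genes described here control the step from G1 to S phase of the cell cycle: the D-type cyclins CCND1 and CCND3, the E-type cyclins CCNE1 and CCNE2, the E2F transcription factors E2F1, E2F2, E2F7 and E2F8, the transcription factor MYC and the cyclin-dependent kinase inhibitor CDKN1B (p27). They were taken from a table of 60664 genes by matching the Ensembl gene identifiers to their symbols. Of the 10, 9 had reads and passed the filter on low counts, as did 15066 genes in all. E2F8 was listed at 0 counts in every library and has no value here. RNA was sequenced from 8 libraries of A549, an established line from a human lung adenocarcinoma, and each of 4 groups had 2 libraries. Untreated cells received neither agent. The AX-0085 group (AX0085 in the labels) received this kinase inhibitor, which the study describes as a blocker of JAK2 activation, at 0.5 μM. The IFN-γ group received interferon gamma, a cytokine that signals through JAK kinases, at 20 ng/mL in the study's methods and at 20 ng without a volume in the labels. The last group received both agents, with IFN-γ applied 24 h before AX-0085 and RNA taken after another 24 h. The same periods of 24 h and 24 h are given for all 4 groups. IFN-γ alone was thus applied 24 h earlier than AX-0085 alone. All groups were grown in the same medium with serum, and the labels name no vehicle for the groups without AX-0085.

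D-type cyclins bind CDK4 and CDK6 in early G1, and these kinases phosphorylate the retinoblastoma protein, which otherwise holds E2F factors inactive. Freed E2F1 and E2F2 switch on genes for DNA replication together with CCNE1 and CCNE2, whose products bind CDK2 and drive the entry into S phase, while E2F7 and E2F8 repress the same genes later. MYC raises the transcription of growth and cell cycle genes, and p27, the product of CDKN1B, blocks cyclin E with CDK2. IFN-γ is known to slow the growth of many epithelial cells.

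The 250 bases before the transcription start of E2F1, E2F2 and CCNE1 are printed from RefSeq (GRCh38.p14), 5′ to 3′ on the strand of the gene, because these genes were lower in every treated group and E2F factors are known to act on their promoters. They lie at chr20:33686386-33686635 on the minus strand for E2F1, at chr1:23531234-23531483 on the minus strand for E2F2 and at chr19:29811741-29811990 on the plus strand for CCNE1. Capitals mark exact matches, on either strand, to TTTCCCGC, TTTGGCGC, TTTCGCGC or TTTGCCGC, letters of E2F sites.
E2F1: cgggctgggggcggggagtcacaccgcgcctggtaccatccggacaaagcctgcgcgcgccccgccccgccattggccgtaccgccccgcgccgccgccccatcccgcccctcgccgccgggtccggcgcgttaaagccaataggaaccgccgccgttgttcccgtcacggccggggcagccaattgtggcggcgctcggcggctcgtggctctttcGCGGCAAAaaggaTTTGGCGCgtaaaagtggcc
E2F2: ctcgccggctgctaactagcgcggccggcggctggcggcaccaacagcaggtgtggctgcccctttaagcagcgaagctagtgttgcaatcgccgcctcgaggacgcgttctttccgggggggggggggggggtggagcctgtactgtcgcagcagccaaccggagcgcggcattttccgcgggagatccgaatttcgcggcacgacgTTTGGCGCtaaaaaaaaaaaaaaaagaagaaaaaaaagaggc
CCNE1: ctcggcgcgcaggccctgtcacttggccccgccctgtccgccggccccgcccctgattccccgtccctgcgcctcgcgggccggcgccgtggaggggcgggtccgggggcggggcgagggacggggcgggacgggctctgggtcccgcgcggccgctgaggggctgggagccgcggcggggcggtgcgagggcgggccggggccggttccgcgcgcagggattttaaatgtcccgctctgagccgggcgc
E2F1 has a minus-strand match to TTTGCCGC whose first base is 33 bases before the start and a plus-strand match to TTTGGCGC at 20 bases before it. The E2F2 match, TTTGGCGC on the plus strand, begins 42 bases before the start. In CCNE1 these letters have no match in the window of 300 bases that runs 50 bases past the start. Of all 35116 windows of that length, 3.31% hold at least 1 of these letter sets. Windows were at hand for 6 of the 10 members (CCND3, with 3 windows, and CCNE1, E2F1, E2F2, E2F7 and CDKN1B), and E2F1 and E2F2 were the only members among them with such a match. CACGTG, the E-box that MYC can bind, is held by 7.26% of all windows, TTCNNNGAA, bound by STAT dimers, by 7.66%, and TTTGAA, the CHR element, by 15.2%. None of the 6 members had a match to these 3 motifs in its windows. A match describes letters and not a bound site.

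The genes lie on 7 chromosomes of GRCh38, and all are annotated as protein coding in GENCODE 44. CCND1 spans 69641156 to 69654474 of chromosome 11 on the plus strand, and CCND3 spans 41934934 to 42050357 of chromosome 6 on the minus strand. CCNE1 spans 29811991 to 29824312 of chromosome 19 on the plus strand, and CCNE2 spans 94879770 to 94896678 of chromosome 8 on the minus strand. E2F1 spans 33675477 to 33686385 of chromosome 20, E2F2 spans 23506438 to 23531233 of chromosome 1, E2F7 spans 77021248 to 77065569 of chromosome 12 and E2F8 spans 19224063 to 19241620 of chromosome 11, all on the minus strand. MYC spans 127735434 to 127742951 of chromosome 8 and CDKN1B spans 12685498 to 12722369 of chromosome 12, both on the plus strand. No member shares exonic bases with another gene on its own strand. On the opposite strand, 37.1% of the exonic bases of CCNE2 lie in INTS8 or a lncRNA and 10.4% of those of CCND1 lie in LTO1. The library kit marks the strand, but the strand setting of the counting is not given in the sources used here.

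Total counts lay between 20672828 and 29978251 per library, and 3 counts, used as the detection floor, correspond to 0.1 to 0.145 CPM (counts scaled to library size with edgeR's TMM factors). Such limits cover counting error only. Differences were tested with edgeR's quasi-likelihood test over all 15066 genes and all 8 libraries, with Benjamini-Hochberg-adjusted p-values. A gene was called where the adjusted p was under 0.05 and the log2 fold change over 1 in size. Counts at an unadjusted p under 0.05 are given without the share of all genes at that limit. The labels do not say whether the 2 libraries of a group came from separate cultures, so the p-values measure the spread between these libraries, which may be technical. An exact permutation test of 2 against 2 libraries cannot go below p = 0.333. In bulk RNA, fewer cells in a cycle phase and less RNA per cell cannot be told apart. Of 109 genes in the related lists used below, 10 were also at 0 counts in all libraries, among them CDK2, which cycling cells use, so that the 0 of E2F8 is given as listed and not read as absence of its RNA.

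In untreated cells the D-type cyclins led the members. Per kilobase of all annotated exons, CCND3 stood at 48.3 CPM and CCND1 at 46.2 CPM. The expressed RNA can be shorter, so the order of genes depends on this length. E2F1 followed at 23.9, MYC at 14.1 and CCNE1 at 10.2 CPM per kilobase. E2F2 at 3.76, E2F7 at 3.74 and CDKN1B at 2.99 CPM per kilobase lay lower, and CCNE2 was lowest at 1.60. With IFN-γ the order was different. MYC led at 57.2 CPM per kilobase, CCND1 followed at 48.9, CCND3 was at 8.05 and CCNE2 remained last at 0.185.

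**Figure D1:**
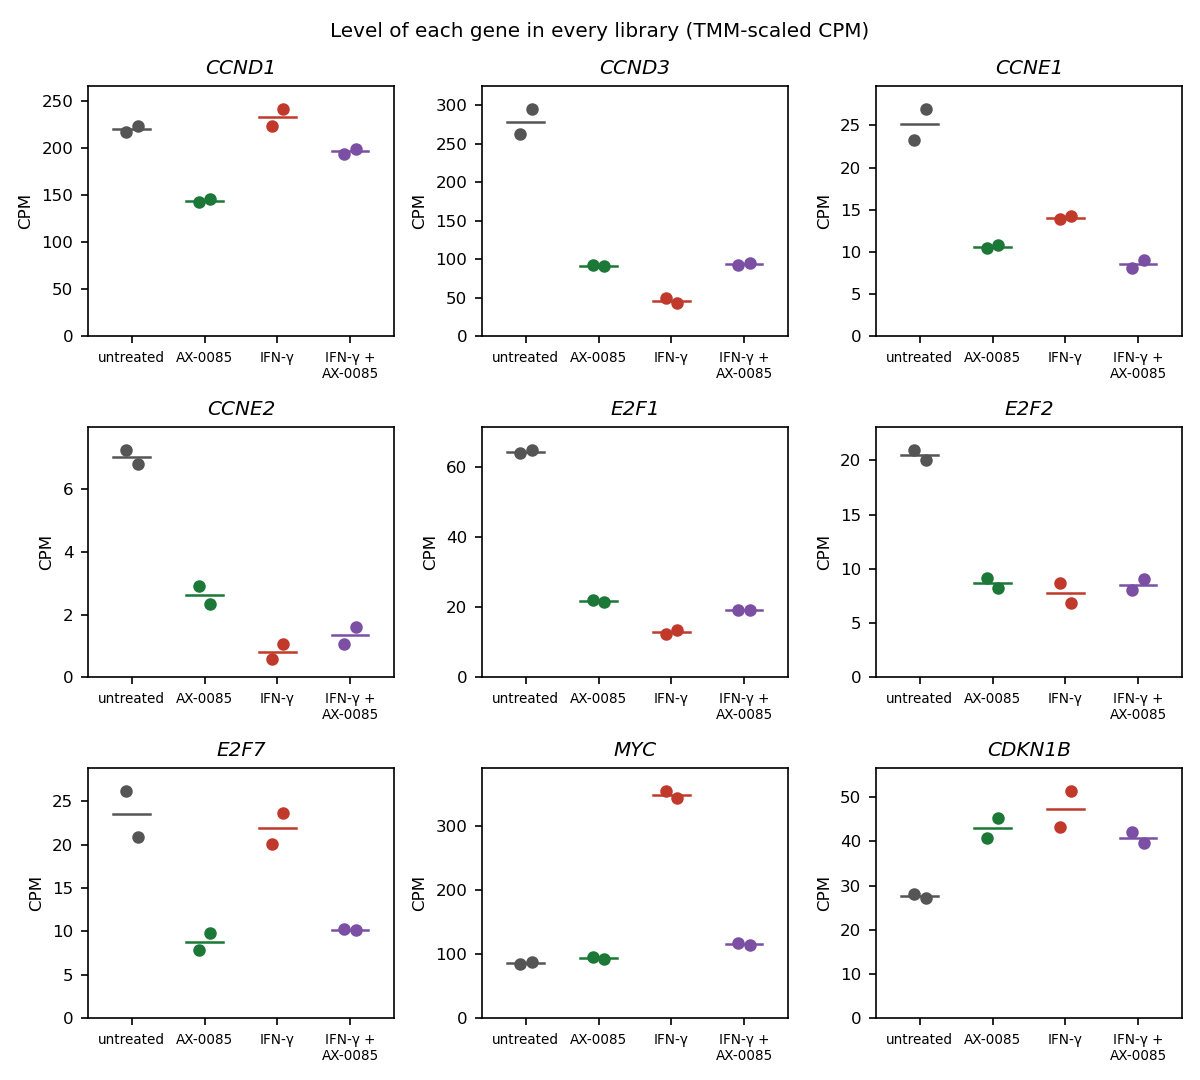
TMM-scaled CPM (vertical axes, from 0) of the 9 measured genes in each of the 8 libraries, by group. Points are libraries and bars are group means of 2 libraries. CCND3, CCNE1, CCNE2, E2F1 and E2F2 have their highest libraries in the untreated group, while MYC stands at 344 and 356 CPM with IFN-γ and at 118 CPM or less elsewhere.

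The D-type cyclins CCND1 and CCND3, which bind the same kinases, had different patterns. CCND3 was measured at 262 and 295 CPM in untreated cells, 92.4 and 90.8 under AX-0085, 49.3 and 43.5 under IFN-γ, and 93.1 and 94.8 under both. Every treated library lay below both untreated ones, and the IFN-γ libraries were lowest. CCND3 fell 6.02-fold with IFN-γ (log2 fold change -2.59, SE 0.0759, adjusted p = 1.024e-11) and 3.04-fold with AX-0085 (log2 fold change -1.60, adjusted p = 2.393e-09). With AX-0085 on top of IFN-γ, CCND3 rose 2.03-fold (log2 fold change 1.02, SE 0.0753, adjusted p = 7.202e-08), close to the threshold, and the call was lost with RLE size factors (0.98), with DESeq2 (0.98) and without IFN-γ replicate 2 (0.92). The level of CCND3 with both agents differed from that with AX-0085 alone by 0.04 on the log2 scale (95% interval -0.12 to 0.19).

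CCND1 was measured at 217 and 224 CPM in untreated cells, 143 and 146 under AX-0085, 224 and 242 under IFN-γ, and 194 and 199 under both. Its lowest libraries were those with AX-0085 alone, and the untreated and IFN-γ libraries lay side by side. IFN-γ left CCND1 at a log2 difference of 0.08 (95% interval -0.04 to 0.20, adjusted p = 0.2256), and with scaling by library size alone the sign of this difference changed (-0.03). With AX-0085 alone the log2 difference of CCND1 was -0.61 (SE 0.0574, adjusted p = 1.632e-06), under the fold threshold. LTO1, which overlaps CCND1 on the opposite strand at 401 to 1470 counts against 3579 to 6555 for CCND1, rose with IFN-γ (log2 fold change 1.56). Its part in the CCND1 counts was not tested.

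The E-type cyclins were highest in untreated cells. CCNE1 was measured at 23.3 and 27 CPM in untreated cells, 10.5 and 10.8 under AX-0085, 13.8 and 14.3 under IFN-γ, and 8.09 and 8.99 under both. No 2 groups overlapped, and the lowest libraries were those with both agents. CCNE1 fell 2.35-fold with AX-0085 (log2 fold change -1.24, SE 0.0987, adjusted p = 3.626e-07) and 2.95-fold with both against untreated (log2 fold change -1.56, adjusted p = 3.883e-08). With IFN-γ alone the log2 difference was -0.83 (adjusted p = 5.354e-06), under the fold threshold. Adding AX-0085 to IFN-γ gave a further log2 difference of -0.73 (95% interval -0.96 to -0.49).

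CCNE2, the least abundant member, had 219 and 167 counts in the untreated libraries, 73 and 62 under AX-0085, 11 and 26 under IFN-γ, and 33 and 36 under both. These counts correspond to 7.25 and 6.80 CPM in untreated cells, 2.91 and 2.33 under AX-0085, 0.581 and 1.05 under IFN-γ, and 1.06 and 1.62 under both. The groups kept apart in CPM, although the IFN-γ libraries nearly met those with both agents. CCNE2 fell 8.32-fold with IFN-γ (log2 fold change -3.06, SE 0.247, adjusted p = 1.404e-07), 2.69-fold with AX-0085 (log2 fold change -1.43, adjusted p = 3.864e-05) and 5.40-fold with both (log2 fold change -2.43, adjusted p = 7.297e-07). With both agents against IFN-γ alone the log2 difference of CCNE2 was 0.62 (95% interval -0.09 to 1.33, adjusted p = 0.1109), with an adjusted p below 0.05 without IFN-γ replicate 2 (1.15, adjusted p = 0.04005) and without replicate 1 of both agents (0.94, adjusted p = 0.04434). INTS8, which overlaps CCNE2 on the opposite strand, had 1115 to 2419 counts in a library and a log2 difference of -0.44 with IFN-γ and -0.18 with AX-0085. The share of INTS8 reads in the counts of CCNE2 was not tested.

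The activating factors E2F1 and E2F2 were both lower in every treated library than in any untreated one. E2F1 was measured at 63.9 and 64.9 CPM in untreated cells, 22.0 and 21.6 under AX-0085, 12.4 and 13.5 under IFN-γ, and 19.3 and 19.2 under both. The groups did not overlap, and IFN-γ alone gave the lowest level. E2F1 fell 4.97-fold with IFN-γ (log2 fold change -2.31, SE 0.0794, adjusted p = 4.227e-11), 2.95-fold with AX-0085 (log2 fold change -1.56, adjusted p = 3.673e-09) and 3.35-fold with both (log2 fold change -1.74, adjusted p = 9.396e-10). Against IFN-γ alone, E2F1 stood 0.57 higher on the log2 scale with both agents (95% interval 0.39 to 0.75, adjusted p = 5.028e-05), which is under the fold threshold.

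E2F2 was measured at 21.0 and 20.1 CPM in untreated cells, 9.20 and 8.28 under AX-0085, 8.66 and 6.87 under IFN-γ, and 8.06 and 9.04 under both. The 3 treated groups overlapped and lay below every untreated library. E2F2 fell 2.67-fold with IFN-γ (log2 fold change -1.42, SE 0.119, adjusted p = 2.033e-07), 2.35-fold with AX-0085 (log2 fold change -1.23, adjusted p = 1.374e-06) and 2.41-fold with both (log2 fold change -1.27, adjusted p = 7.750e-07). Between both agents and IFN-γ alone the log2 difference of E2F2 was 0.14 (95% interval -0.14 to 0.42, adjusted p = 0.3452), and its sign changed without IFN-γ replicate 2 (-0.03).

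E2F7, an E2F family repressor whose gene is itself a target of E2F1, followed the presence of AX-0085. It was measured at 26.2 and 20.9 CPM in untreated cells, 7.89 and 9.79 under AX-0085, 20.1 and 23.7 under IFN-γ, and 10.2 and 10.2 under both. The untreated and IFN-γ libraries overlapped, and all 4 libraries with AX-0085 lay below them. E2F7 fell 2.67-fold with AX-0085 alone (log2 fold change -1.42, SE 0.132, adjusted p = 1.555e-06) and 2.16-fold with AX-0085 on top of IFN-γ (log2 fold change -1.11, SE 0.133, adjusted p = 7.610e-06). The second call was lost with scaling by library size alone and without IFN-γ replicate 2, both at -0.99. With IFN-γ alone the log2 difference of E2F7 was -0.10 (95% interval -0.37 to 0.16, adjusted p = 0.4695), and it was 0.12 without untreated replicate 1 and 0.01 without IFN-γ replicate 1.

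MYC was the member with the largest rise. It was measured at 84.3 and 87.4 CPM in untreated cells, 96.0 and 93.2 under AX-0085, 356 and 344 under IFN-γ, and 118 and 115 under both. The groups did not overlap, and the IFN-γ libraries stood far above all others. MYC rose 4.07-fold with IFN-γ (log2 fold change 2.03, SE 0.0554, adjusted p = 5.728e-12) and fell 3-fold with AX-0085 on top of IFN-γ (log2 fold change -1.58, SE 0.0543, adjusted p = 5.532e-11). With both agents MYC remained above untreated cells by 0.44 on the log2 scale (95% interval 0.32 to 0.56, adjusted p = 1.525e-05), under the fold threshold. AX-0085 alone gave MYC a log2 difference of 0.14 (adjusted p = 0.04781), and the adjusted p was 0.05659 with RLE size factors, 0.06122 with library size alone, 0.06877 with the replicate block, 0.1263 with DESeq2 and between 0.02113 and 0.2176 over all alternatives.

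CDKN1B, the p27 inhibitor that holds cyclin E with CDK2 in check, was lowest in untreated cells. It was measured at 28.1 and 27.2 CPM there, 40.8 and 45.4 under AX-0085, 43.3 and 51.5 under IFN-γ, and 42.1 and 39.6 under both. The AX-0085 libraries overlapped those of each other treated group, while the IFN-γ libraries lay above those with both agents. All treated libraries lay above the untreated ones. None of the differences reached 2-fold. The log2 difference from untreated cells was 0.78 with IFN-γ (95% interval 0.58 to 0.98, adjusted p = 6.737e-06), 0.64 with AX-0085 (95% interval 0.44 to 0.84, adjusted p = 7.474e-05) and 0.57 with both (95% interval 0.36 to 0.77, adjusted p = 1.901e-04). For CDKN1B, the log2 difference of both agents was -0.22 against IFN-γ (adjusted p = 0.05346, from 0.0047 to 0.4577 over the alternatives) and -0.08 against AX-0085 (adjusted p = 0.5611).

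The first comparison asks what IFN-γ did to untreated cells. CCND3, CCNE2, E2F1 and E2F2 fell, and MYC rose. Of the 9 members, 1 was called higher and 4 were called lower. Over all genes tested, 10.3% were called higher and 17.2% called lower in this comparison. By adjusted p alone, 2 members passed higher (MYC and CDKN1B) and 5 lower, beside 32.1% and 36.0% of all genes. The members' median log2 fold change was -0.83, and that of all genes was -0.06.

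AX-0085 against untreated cells asks what the inhibitor did without added IFN-γ. CCND3, CCNE1, CCNE2, E2F1, E2F2 and E2F7 fell. The called members were 6 lower and 0 higher of 9 by edgeR and by DESeq2, while 5.62% of all genes were called lower and 6.41% higher. With the fold threshold dropped, 7 members passed lower, with CCND1 added, and 2 higher (CDKN1B and, close to the limit, MYC), beside 26.6% and 26.7% of all genes, and the unadjusted p under 0.05 gave the same counts of 7 and 2. The median log2 fold change was -1.24 over the members and 0.01 over all genes.

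Adding AX-0085 to IFN-γ asks which IFN-γ changes the inhibitor moved. CCND3 rose, and MYC and E2F7 fell. Thus 1 of 9 members was called higher and 2 were called lower, and 16.5% of all genes were called higher and 8.28% lower. Without the fold threshold, CCND3 and E2F1 passed higher and 4 members passed lower (CCND1, CCNE1, E2F7 and MYC), beside 33.7% and 32.8% of all genes. The median log2 fold change was -0.22 over the members and 0.03 over all genes. For CCND3, E2F1 and CCNE2, the values with both agents stayed under the lowest untreated library.

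With both agents against untreated cells, CCND3, CCNE1, CCNE2, E2F1, E2F2 and E2F7 fell, which makes 6 of 9 members called lower and 0 higher by edgeR and by DESeq2. This comparison shares its untreated libraries with those of IFN-γ and AX-0085 alone. Over all genes, 7.51% were called higher and 7.23% lower. By adjusted p alone, 2 members passed higher and 7 lower, beside 28.1% and 28.8% of all genes, and at an unadjusted p under 0.05 the counts were 2 and 7. The median log2 fold change was -1.27 over the members and 0.01 over all genes. E2F7 was at -1.21 (adjusted p = 4.109e-06), and its call was lost without untreated replicate 1 (-0.99).

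Between both agents and AX-0085 alone, which asks what IFN-γ did in cells that also received the inhibitor, CCNE2 was the member that passed. Its log2 fold change was -1.01 (SE 0.252, adjusted p = 0.007879), and 1 of 9 members was called lower and 0 higher, beside 1.73% and 1.79% of all genes. The CCNE2 call was lost with RLE size factors (-0.996), with DESeq2 (-0.98) and without untreated replicate 1 (-0.98), AX-0085 replicate 1 (-0.84), IFN-γ replicate 2 (-0.98) or replicate 1 with both agents (-0.66). Without the fold threshold, CCND1 and MYC passed higher and CCNE1 and CCNE2 lower, so 2 members in each direction, beside 17.3% higher and 17.4% lower of all genes, and at an unadjusted p under 0.05 there were 2 higher and 3 lower. CCND1 was at 0.45 (95% interval 0.32 to 0.57) and MYC at 0.30 (95% interval 0.19 to 0.42) on the log2 scale. The median was -0.04 over the members and -0.01 over all genes.

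Set against AX-0085 alone, IFN-γ alone gave higher MYC (log2 fold change 1.89, adjusted p = 7.703e-12) and E2F7 (1.31, adjusted p = 1.322e-06) and lower CCNE2 (-1.63, adjusted p = 2.010e-04). In this comparison the times of treatment also differ, since IFN-γ was applied 24 h earlier than AX-0085. Of 9 members, 2 were called higher and 1 lower, beside 12.3% and 19.9% of all genes. By adjusted p alone, 4 members passed higher and 3 lower, beside 34.4% and 37.8%. CCND3 stopped just short of the fold threshold at -0.99, and it was called lower with scaling by library size alone (-1.11), with at least 10 counts in every library (-1.05) and without IFN-γ replicate 1 (-1.06). The medians were 0.14 over the members and -0.07 over all genes.

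**Figure D2:**
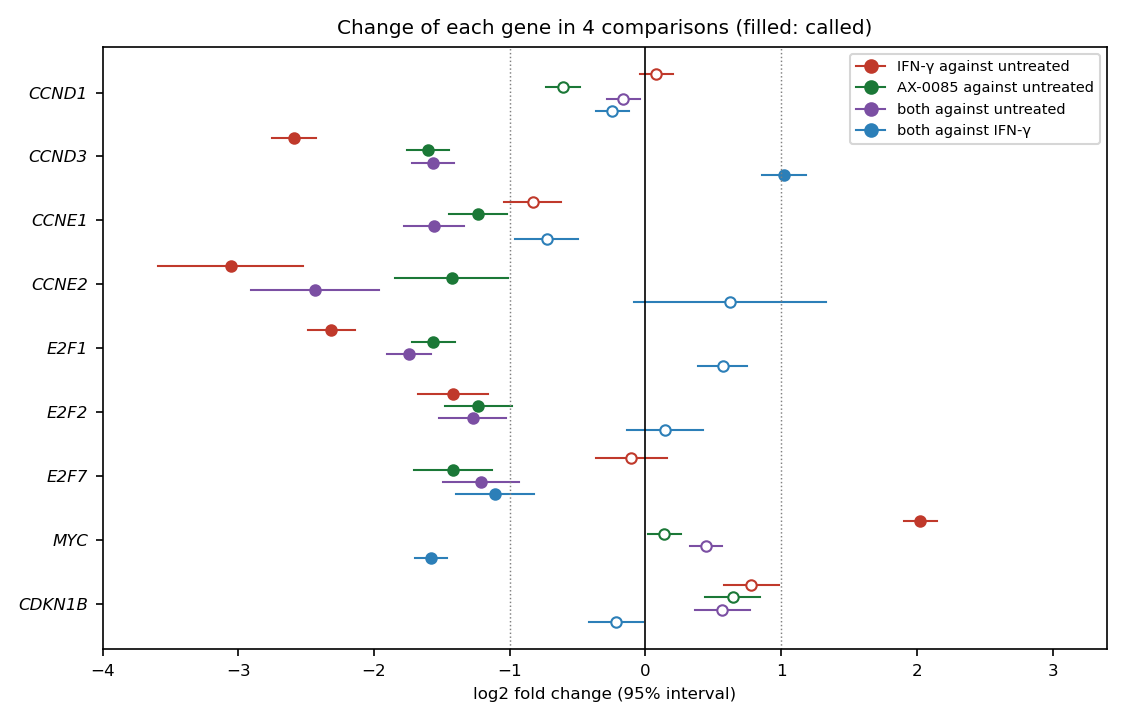
Log2 fold change (horizontal axis) of the 9 measured genes in 4 comparisons, with 95% intervals from edgeR. Filled points were called, open points were not, and dotted lines mark a 2-fold change. MYC at 2.03 with IFN-γ lies farthest to the right, and CCNE2 at -3.06 with IFN-γ lies farthest to the left.

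The interaction asks whether the effect of AX-0085 differed between cells with and without IFN-γ. It is the log2 change with both agents minus the sum of the changes with each alone. For CCND3 the single changes sum to -4.19, and both agents gave -1.57, an interaction of 2.63 (SE 0.104, adjusted p = 1.436e-09). For E2F1 the sum was -3.88 and the measured change -1.74, an interaction of 2.13 (SE 0.111, adjusted p = 1.196e-08). CCNE2 and E2F2, the other cyclin and factor that fell with each agent, had interactions of 2.05 (SE 0.379, adjusted p = 5.964e-04) and 1.38 (SE 0.173, adjusted p = 2.508e-05). In these 4 genes the change with both agents was thus smaller than the sum. For MYC the sum was 2.17 and the measured change 0.44, an interaction of -1.72 (SE 0.0771, adjusted p = 3.513e-09).

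E2F7 had an interaction of 0.31 (95% interval -0.10 to 0.72, adjusted p = 0.1936), so a difference in its response to AX-0085 between cells with and without IFN-γ was not shown. CCND1 at 0.37, CCNE1 at 0.51 and CDKN1B at -0.86 passed the adjusted p but not the fold threshold. Of 9 members, 4 were called higher and 1 lower in the interaction, beside 12.1% and 6.46% of all genes. With the adjusted p alone, 6 were higher and 2 lower, beside 26.7% and 23.6%. The median interaction was 0.51 over the members and 0.05 over all genes. Because the interaction uses the untreated, IFN-γ and AX-0085 libraries again, it is not independent of the comparisons above.

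**Figure D3:**
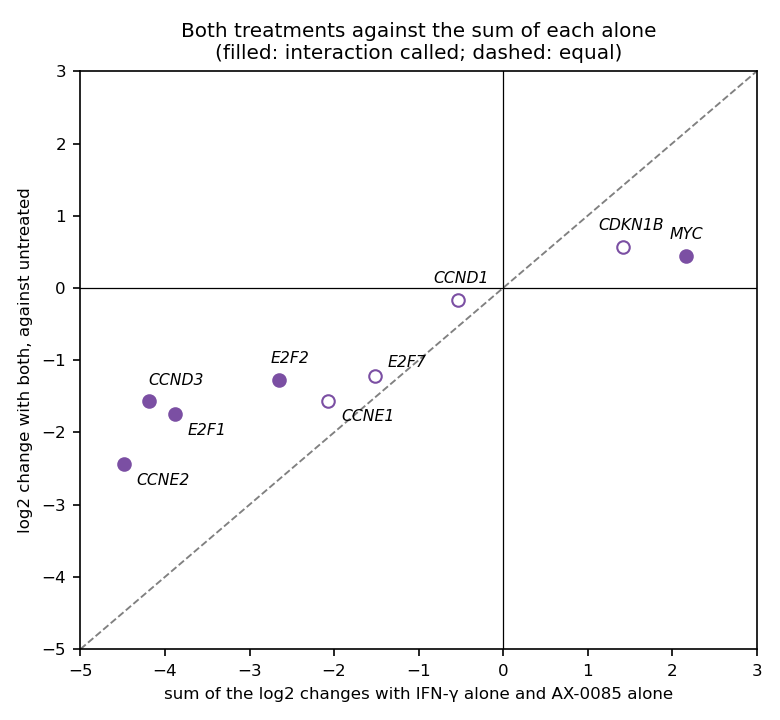
Log2 change with both agents against untreated cells (vertical axis) plotted on the sum of the log2 changes with IFN-γ alone and AX-0085 alone (horizontal axis). Each point is a gene, filled where the interaction was called, and on the dashed line both would be equal. CCND3, E2F1, CCNE2 and E2F2 lie above the line and MYC at 2.17 and 0.44 lies below it, while E2F7, at an interaction of 0.31, lies near it.

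Ratios within a library do not depend on its depth, and they show how unequal the changes were within each pair of related genes. They are given per kilobase of all annotated exons and without a test. The expressed RNA can be shorter, so the size of a ratio depends on this length, which is the same in all groups. CCND3 relative to CCND1 was 0.998 and 1.09 in untreated cells, 0.536 and 0.514 under AX-0085, 0.182 and 0.148 under IFN-γ, and 0.396 and 0.393 under both. On this scale the D-type cyclins were near parity in untreated cells, and the ratio was lower in every treated library. CCNE1 relative to CCNE2 was 5.74 and 7.08 in untreated cells, 6.46 and 8.24 under AX-0085, 42.6 and 24.5 under IFN-γ, and 13.7 and 9.93 under both. The untreated and AX-0085 libraries overlapped in this ratio, and the spread with IFN-γ comes with only 11 and 26 counts of CCNE2.

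The activator E2F1 relative to the repressor E2F7 was 5.70 and 7.27 in untreated cells, 6.52 and 5.16 under AX-0085, 1.44 and 1.33 under IFN-γ, and 4.41 in each library under both. The IFN-γ libraries stood apart as the lowest. E2F1 relative to E2F2 was between 4.30 and 6.57 in the libraries without IFN-γ or with both agents and 2.90 and 3.98 with IFN-γ alone. CCNE1 relative to its inhibitor CDKN1B was 3.11 and 3.73 in untreated cells and between 0.722 and 1.2 in the 6 treated libraries. All treated groups shared the lower ratio, with no overlap with untreated cells.

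**Figure D4:**
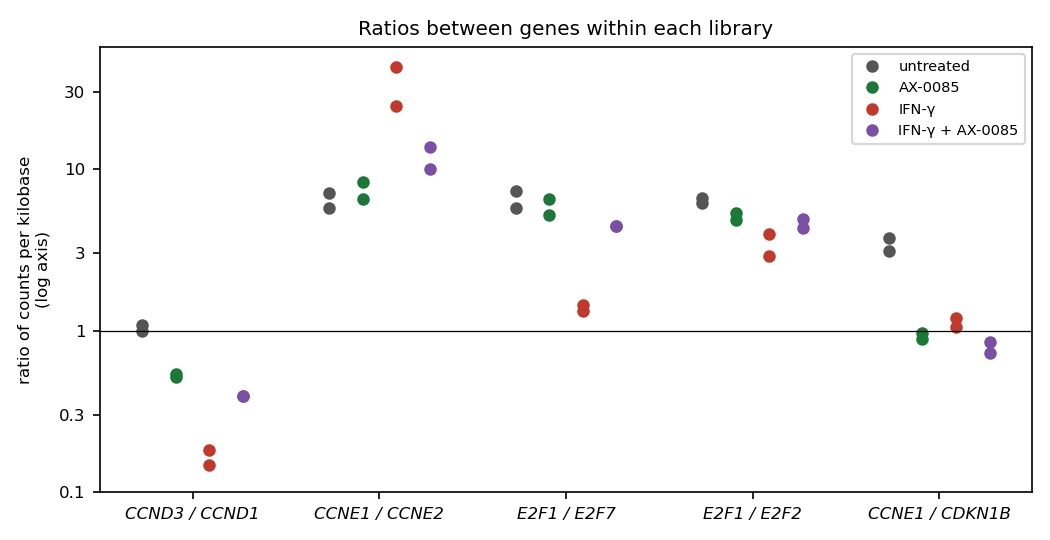
Ratios of counts per kilobase between 2 genes within each library (vertical axis, log scale) for 5 pairs of members, by group. Each point is a library. CCND3 relative to CCND1 runs from 1.09 down to 0.148 with IFN-γ, and CCNE1 relative to CDKN1B is at or under 1.2 in all treated libraries.

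For each measured member, the genes with the most similar pattern (2 for each, not all of them named) were taken by Pearson's r of log2 CPM over the 8 libraries, among 10123 genes whose mean log2 CPM was 2 or more. The 8 points share the same 4 groups, so r mostly follows the group means, and many genes have values close to the top. E2F1 was closest to CENPI (r = 0.997), a kinetochore gene, and TFDP1 (r = 0.997), which encodes the DP1 partner of E2F factors. E2F7 was closest to DEPDC1 (r = 0.996) and CENPL (r = 0.991), and CCND3 to AKT2 (r = 0.997) and the mitotic kinesin gene KIF20A (r = 0.996). MYC was closest to SPIRE1 and TRIM69 (r = 0.998 for each), and CCNE1 to VDAC1 (r = 0.995) and C1orf112 (r = 0.994). CCND1 was closest to RRP1B (r = 0.994) and NDST1 (r = 0.993), E2F2 to FOXRED1 (r = 0.993), CCNE2 to ELOVL2 (r = 0.990) and NETO2 (r = 0.986), and CDKN1B to ZNF70 (r = 0.991) and ZMYM4 (r = 0.985).

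Most genes of a list that E2F factors are known to switch on for DNA replication fell with either agent. Like the other related lists, it was chosen with earlier results of these data known, so its counts are a description. Of 24 such genes, 17 were called lower with IFN-γ (median log2 fold change -1.14), 14 with AX-0085 (median -1.2) and 20 with both against untreated (median -1.29), and edgeR called 0 higher in any of these, with 0 higher also by DESeq2 or at an unadjusted p under 0.05. Of all genes, 17.2%, 5.62% and 7.23% were called lower in these comparisons, and their medians were -0.06, 0.01 and 0.01. TK1, the thymidine kinase of S phase, was at -2.61 with IFN-γ. RRM2, a subunit of ribonucleotide reductase, was at -1.98 and CDC45, a part of the replicative helicase, at -1.76 with AX-0085. With AX-0085 on top of IFN-γ, 0 of the 24 were called in either direction by edgeR (median -0.07, range -0.96 to 0.78). Of all genes, edgeR called 16.5% higher and 8.28% lower. DESeq2 called 1 of the 24 lower. At an unadjusted p under 0.05, 5 were higher and 10 lower in that comparison, in which E2F1 itself stood 0.57 higher. In the interaction 11 of the 24 were called higher (median 0.98), beside 12.1% of all genes.

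Genes that MYC is known to switch on, mostly for ribosome biogenesis and metabolism, were listed with 20 members, of which 17 were tested and 3 (RRS1, PPAN and NOP16) were at 0. With IFN-γ, 3 were called higher (ODC1, DKC1 and NOP58) and 1 lower (LDHA), beside 10.3% and 17.2% of all genes. The list's median log2 fold change was 0.57 beside -0.06 over all genes. With both agents against IFN-γ, edgeR called 4 lower (ODC1, DKC1, NOP56 and NOP58) and 0 higher, beside 8.28% and 16.5% of all genes. DESeq2 called 5 lower and 0 higher. At an unadjusted p under 0.05, 15 were lower and 0 higher. By adjusted p alone, a stricter limit that cannot be set directly beside that count, 32.8% of all genes were lower and 33.7% higher. The list's median was -0.82 beside 0.03 over all genes. ODC1, the first enzyme of polyamine synthesis, rose with IFN-γ (1.77) and fell when AX-0085 was added (-2.01). DKC1, the pseudouridine synthase dyskerin, was at 1.39 and -1.44 in the same comparisons. With AX-0085 alone the median was -0.49, while MYC stood at 0.14. LDHA (-1.19), which encodes a lactate dehydrogenase subunit, was the 1 gene called, beside 5.62% of all genes called lower.

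In the network of genes around MYC and MAX, 10 of 11 genes were tested. MXD1, which competes with MYC for MAX, rose with IFN-γ (3.22) and fell when AX-0085 was added (-3.64). MXD3, of the same family, fell with IFN-γ (-3.99) and rose with AX-0085 added (2.26), and 43.7% of its exonic bases lie in another annotated gene. MXD4 rose with AX-0085 alone (1.30). In all, 2 were called higher and 1 lower with IFN-γ, 1 and 1 with AX-0085, and 3 and 1 with both against IFN-γ. Of all genes, 10.3% and 17.2%, 6.41% and 5.62%, and 16.5% and 8.28% were called higher and lower in these comparisons, so several of the counts are near the shares over all genes. MXI1 (1.24 with IFN-γ), MXD4 (1.80 with both against IFN-γ) and MLXIP (1.16 with both against IFN-γ) make up these counts and, like NOP56 and NOP58, entered the text because of their values.

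The other CDK inhibitors moved in different directions. Of 6, CDKN2A and CDKN2B, which lie in a region known to be deleted in A549, were at 0, and 4 were tested. With IFN-γ, 1 was called higher and 3 lower, beside 10.3% and 17.2% of all genes. With both agents against IFN-γ, 2 were called higher and 1 lower, beside 16.5% and 8.28%. CDKN2C, an inhibitor of CDK4 and CDK6, fell with IFN-γ (log2 fold change -3.05) and rose when AX-0085 was added (2.21). CDKN1C had 17 and 13 counts in untreated cells, 53 and 43 under AX-0085, 2 and 4 under IFN-γ, and 43 and 35 under both, so that its fold against IFN-γ rests on counts near the detection floor. CDKN1A (p21), which is named here after its value was seen, was the gene called higher with IFN-γ (1.91) and the gene called lower with both agents against IFN-γ (-1.39, adjusted p = 3.890e-09). With AX-0085 alone, CDKN1C was the only gene of the list called (1.76), beside 6.41% of all genes called higher.

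Of 9 pocket proteins and further E2F and DP subunits, 2 were called higher with IFN-γ (E2F5 at 1.15 and E2F4 at 1.13, which act with pocket proteins as repressors) and 1 lower (RBL1, the pocket protein p107, at -1.11, named after its value was seen), counts near the 10.3% and 17.2% of all genes. With AX-0085 alone, edgeR and DESeq2 called 0 of the 9, which ranged from -0.60 to 0.29. Of all genes, edgeR called 6.41% higher and 5.62% lower. At an unadjusted p under 0.05, 3 of the 9 were higher and 4 lower. With both against IFN-γ, 1 was called lower (E2F4 at -1.22) and 0 higher, beside 8.28% and 16.5% of all genes. Of 8 G1 kinases and activators, CCND2 and CDK2 were at 0 and 6 were tested. With IFN-γ, 1 was called higher (CCNH, the cyclin of the CDK-activating kinase, at 1.33) and 0 lower, beside 10.3% and 17.2% of all genes. With AX-0085, 1 was called lower (CDC25A, the phosphatase that activates CDK2, at -1.76) and 0 higher, beside 5.62% and 6.41%. With AX-0085 on top of IFN-γ, 2 were called lower (CDC25A at -1.24 and CCNH at -1.11) and 0 higher, beside 8.28% and 16.5%. CDK4, CDK6, CDK7 and MNAT1 were not called in these comparisons.

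**Figure D5:**
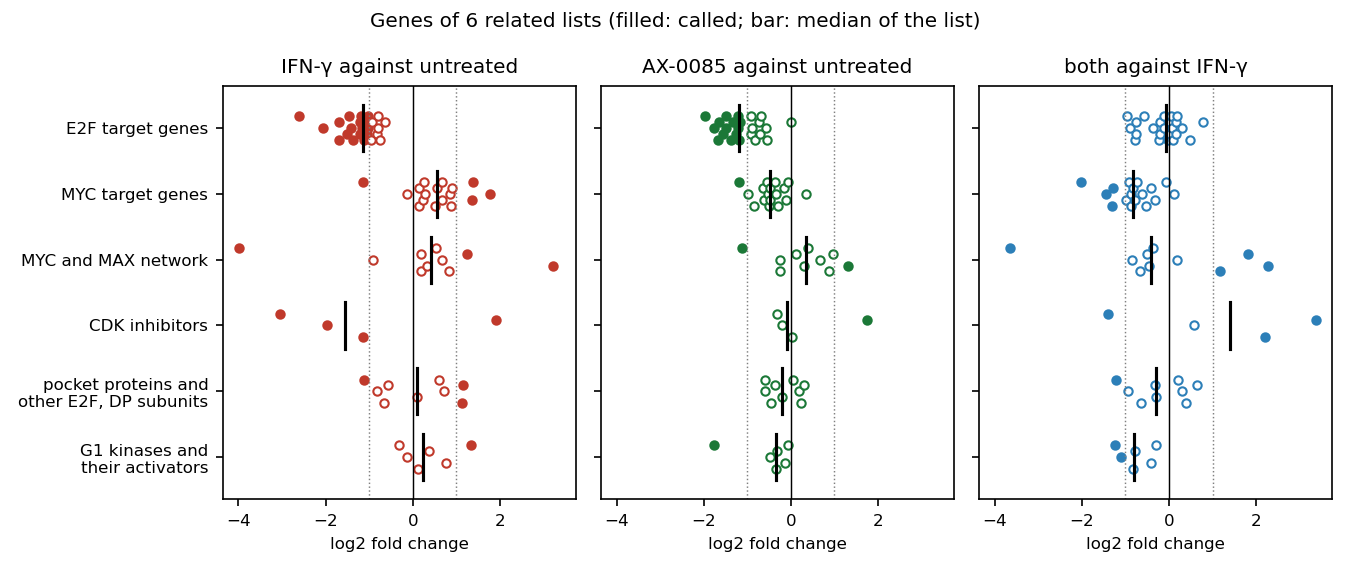
Log2 fold change (horizontal axes) of the tested genes of 6 related lists in 3 comparisons. Each point is a gene, filled where called, bars are list medians and dotted lines mark a 2-fold change. The E2F target genes lie left of 0 with IFN-γ and with AX-0085, with medians of -1.14 and -1.2, and around 0 with AX-0085 on top of IFN-γ.

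Markers were read to check the cells. The summed level of 6 epithelial markers was 6430 to 6880 CPM in untreated cells, 3230 to 3400 under AX-0085, 2580 to 2880 under IFN-γ, and 3610 to 3660 under both. Of the 6 markers, 5 were called lower with IFN-γ and 0 higher, beside 17.2% and 10.3% of all genes. With AX-0085, 1 was called lower (KRT18 at -1.30) and 1 higher (EPCAM at 1.335), beside 5.62% and 6.41%. KRT8 was at -0.91, CDH1 at 0.52, KRT19 at 0.10 and CLDN4 at 0.20. The lower sum under AX-0085 was thus not a fall of every marker. With both agents against IFN-γ, 3 were called higher and 0 lower, beside 16.5% and 8.28%. EPCAM, which marks epithelial cells, was down to 9 and 7 counts with IFN-γ from 103 and 81 without treatment. With both agents against untreated cells the markers were mixed, with KRT18 called lower (-1.26), CDH1 called higher (1.18), KRT8 at -0.73, KRT19 at -0.85, EPCAM at -0.18 and CLDN4 at -0.05. The sum was lower in each treated group, in which CCND3, CCNE2, E2F1 and E2F2 also fell, and its part in these results was not tested. Of 10 markers of other cell types, COL1A1 alone passed the filter, and the list summed to 2.89 to 11.4 CPM in a library. That sum was 9.53 to 11.4 CPM in untreated cells and 2.89 to 4.44 with IFN-γ, and CD3E and MS4A1 were at 0 in all libraries.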

How the data were processed

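The 8 RNA libraries of A549 cells fall into 4 groups of 2 by the sample labels. The authors prepared stranded mRNA libraries, trimmed the paired-end reads with Trim Galore 0.6.7, mapped them to GRCh38 with STAR 2.7.9a and counted reads per gene with featureCounts. The deposited values are raw counts per gene without normalization, and the annotation release is not given in the sources used here. Positions and exon lengths were taken from GENCODE 44, which holds 60463 of the 60664 identifiers. Levels between genes were compared per kilobase of all annotated exons, which need not be the length of the expressed RNA.

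From the counts, genes were filtered with filterByExpr, scaled with TMM factors (0.916 to 1.04) and tested by quasi-likelihood with edgeR 4.0.16 (R 4.3.3) in 1 model of all 4 groups and 8 libraries, without covariates. The study's methods use DESeq2, which is an alternative here. The 7 comparisons were adjusted with Benjamini-Hochberg over the 15066 genes tested, and a call needed an adjusted p below 0.05 with more than a 2-fold change. Standard errors and 95% intervals were derived from the F statistics. Log2 CPM used a prior count of 0.125. Total counts of 20672828 to 29978251 set the smallest level, and the common biological coefficient of variation was 0.0609. The 2 libraries of every group differed beyond counting noise (chi-square per degree of freedom 8.55 to 27.7), so none was taken for a repeat deposit of the other. This does not show that they came from separate cultures.

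The genes named are all 10 members, the 2 genes with the most similar pattern to each, and in each related list the 2 largest changes among called genes that do not overlap between groups, and a few genes this rule gives are not reported here. The members and the lists were chosen with earlier results of these data known. The alternatives were RLE size factors, library size alone, DESeq2 1.42.0, no filter beyond 1 count, at least 10 counts in every library, the adjusted p without the fold, a fit of only the groups compared, a block for the replicate number, and leaving out each library in turn. A block with swapped numbers was chosen after seeing the data. The procedure was tested on simulated data.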

Additional observations from a re-analysis of the deposited data

Results flagged for a closer look

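For 5 of the 9 measured members, the response to AX-0085 differed between cells with and without IFN-γ by a test of the difference itself, the interaction in the edgeR quasi-likelihood fit, at an adjusted p below 0.05 and more than a 2-fold difference. These are 4 higher and 1 lower, beside 12.1% and 6.46% of all genes, and by adjusted p alone 6 members passed higher and 2 lower, beside 26.7% and 23.6%. The interaction on the log2 scale was 2.63 for CCND3 (adjusted p = 1.436e-09), 2.13 for E2F1 (adjusted p = 1.196e-08), 2.05 for CCNE2 (adjusted p = 5.964e-04), 1.38 for E2F2 (adjusted p = 2.508e-05) and -1.72 for MYC (adjusted p = 3.513e-09). CCND3 was lower with AX-0085 alone (-1.60) and higher with both agents against IFN-γ (1.02). E2F1 had -1.56 and 0.57, CCNE2 -1.43 and 0.62, and E2F2 -1.23 and 0.14 in the same comparisons, the last 2 with an interval across 0 in the second. MYC had 0.14 with AX-0085 alone and -1.58 with both against IFN-γ. The CCNE2 value rests on 11 and 26 counts in the IFN-γ libraries. For the same interaction, leaving out each library in turn gave 2.52 to 2.71 for CCND3, 2.07 to 2.18 for E2F1, 1.73 to 2.56 for CCNE2, 1.19 to 1.53 for E2F2 and -1.77 to -1.70 for MYC.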

How the results depend on the processing

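Among the log2 fold changes of single members recomputed under the alternatives, 975 kept their direction and their side of the threshold, 12 lost a call, 4 gained one and 8 changed sign. By adjusted p alone the counts of members rose in every comparison. They rose to 7 for IFN-γ, 9 for AX-0085 and 9 for both agents, each against untreated cells. The other counts rose to 6 for both agents against IFN-γ, 4 for both against AX-0085, 7 for IFN-γ against AX-0085 and 8 for the interaction. The count for both agents against AX-0085, 1 in the edgeR fit, was 0 with RLE size factors and 0 with DESeq2, and it ranged from 0 to 1 when each library was left out. CCNE2 is the gene behind it, at -0.996 and -0.98. Signs changed in differences that did not pass the test. CCND1 with IFN-γ was -0.0339 with library size alone. With each library left out in turn, E2F7 with IFN-γ ranged from -0.249 to 0.119. Over the same omissions E2F2 ranged from -0.0332 to 0.297 for both against IFN-γ, from -0.113 to 0.0757 for both against AX-0085 and from -0.333 to 0.0228 for IFN-γ against AX-0085, and CDKN1B ranged from -0.148 to 0.00483 for both against AX-0085. Library size alone moved the median of all genes to -0.175 for IFN-γ against untreated and to 0.156 for both against IFN-γ. The cause of these shifts was not tested.

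Over 10275 genes, the deviations from the group means of same-numbered libraries correlated at 0.321 between AX-0085 and IFN-γ, at -0.315 and -0.314 between untreated cells and these groups, and at -0.111 to 0.0592 in the other pairs. The labels do not say that a number marks a shared culture or day, so the numbers were not used to pair the samples. The signs depend on how the libraries of a group are numbered. All of these correlations become positive when the untreated and both-agent numbers are swapped. Whether libraries of different groups share a culture or day was not tested. With the replicate block the counts of called members were 5 for IFN-γ and 6 for AX-0085 against untreated, 3 for both against IFN-γ, 1 for both against AX-0085, 6 for both against untreated, 3 for IFN-γ against AX-0085 and 5 for the interaction, as without it. With the untreated and both-agent numbers swapped in the block, chosen after seeing the data, the counts were again 5, 6, 3, 1, 6, 3 and 5, while CDKN1B with both agents against IFN-γ went from an adjusted p of 0.05346 to 0.01126 at -0.21, under the fold threshold. With 2 libraries per group, a lone library left after leaving out 1 was assumed to vary like the other groups. Depth limits CCNE2 most, with 11 counts in its lowest library.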

Other observations

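Genes for the turnover of G1 cyclins, p27 and MYC, and genes of the MuvB complex that works with E2F factors, were not described above. SKP2, the ubiquitin ligase subunit that marks p27 for degradation, had 1139 and 963 counts in untreated cells, 499 and 599 under AX-0085, 129 and 242 under IFN-γ, and 530 and 388 under both. It fell with IFN-γ (log2 fold change -2.20, edgeR adjusted p = 4.663e-09) and rose with both agents against IFN-γ (1.03, adjusted p = 1.362e-05). CKS1B, the cofactor of SKP2, fell with AX-0085 alone (-1.25) and with both agents against IFN-γ (-1.22). Of the 9 genes of the turnover list, SKP2 was the only gene called with IFN-γ, beside 17.2% of all genes called lower. CKS1B was the only gene called with AX-0085, beside 5.62% of all genes called lower. The list medians were 0.23 and -0.10. MYBL2, a target of E2F factors and partner of MuvB, fell with IFN-γ (-1.89), with AX-0085 (-1.77) and with both against untreated (-2.01). It was the only gene called in these comparisons among the 5 tested MuvB and B-MYB genes, and LIN37 was at 0 counts. Of all genes, 17.2%, 5.62% and 7.23% were called lower in the same comparisons.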
